A study of Mus musculus with 4 samples.

Results

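Messenger RNA isoforms of 9 genes of clathrin-mediated endocytosis and membrane fission were compared across the cell classes of the mouse retina. The genes were the clathrin light chains Clta and Cltb, the dynamins Dnm1, Dnm2 and Dnm3, the dynamin-related gene Dnm1l, the amphiphysins Bin1 and Amph, and the endophilin Sh3gl2. They were chosen by name, and all 9 were found among the 13452 Ensembl genes of the deposited isoform table. They held 50 of its 44325 isoforms, from 1 isoform of Sh3gl2 to 11 of Dnm2.

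All retinas were those of male C57BL6/J mice, a common inbred strain, and were labelled wild type, with no transgene or treatment. Cells were dissociated with papain and made into 4 libraries, of which 2 had no enrichment, 1 had CD73 enrichment at postnatal week 8 and 1 had CD90.2 enrichment at postnatal month 4. One of the libraries without enrichment was from postnatal day 40, and no age was read from the labels of the other. CD73 marks photoreceptors and CD90.2 marks neurons such as ganglion cells, and the labels' protocols describe depletion of the former and selection of the latter on magnetic beads, whereas the design text names fluorescence-activated sorting. The 10x Genomics cDNA was read on a nanopore instrument, so that 1 read can cover a whole transcript and show which exons it joins. The table gives counts for rods, cones, bipolar cells, amacrine cells, Müller glia (the radial glial cells of the retina) and retinal ganglion cells, 1 column each, with no library named. A class is therefore 1 pooled sample without a replicate. Every difference below is a description by size, every interval is an exact 95% interval for counting error only, and no test between classes was possible.

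The column totals ran from 3509890 counts in ganglion cells to 55437340 in rods. For a gene with 0 counts a limit of 3 counts was used. It is 0.855 CPM (counts scaled to a column total of 1000000) in ganglion cells but only 0.0541 CPM in rods. Each of 36 markers, 6 for a class, peaked in the column named for its class. The Müller glia column held all 6 microglia markers and 5 of 6 pigment epithelium markers at their highest level, with sums of 1664 and 8878 CPM beside 44104 CPM of the 6 Müller glia markers. The 2 pericyte, 2 astrocyte and 2 endothelial markers measured also peaked there, with sums of 253, 68.5 and 9.29 CPM. Summed rod markers in the Müller glia column, 1211 CPM with none of the 6 at 0, came to 5.84% of their level in rods. Summed bipolar markers there came to 3.22% of their level in bipolar cells, with 2 of 6 at 0, and amacrine markers to 4.35%, with 3 of 6 at 0. The rod column held microglia markers at 725 CPM. The amacrine column held Müller glia markers at 924 CPM (2.09% of their own level) and ganglion cell markers at 693 CPM (3.90%). Its own amacrine markers summed to 686 CPM. Horizontal cells had no column, and their markers summed to 72.1 CPM in the amacrine column.

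Clathrin coats are built from triskelia, each of heavy chains that carry light chains, and form the cage around a budding vesicle. Amphiphysins and endophilins are proteins with a curved BAR domain that bind bent membrane and bring dynamin, a GTPase that cuts the neck of the vesicle. The dynamin-related product of Dnm1l divides mitochondria and peroxisomes. Light chains, Bin1 and Dnm1l are known for exons that are included mainly in neurons, and at the ribbon synapses of photoreceptors and bipolar cells, which release transmitter without pause, vesicle membrane has to be taken back continuously.

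The light chain exons are printed first because the isoform shares of Clta and Cltb turned on them. Capitals mark the cassette exon (an exon that is either joined in or skipped), and the lower-case letters are the 12 bases of the neighbouring exons on either side, read from GENCODE M21 transcripts on build GRCm38. The Clta exons of 54 and 36 nt lie on the plus strand at chr4:44030215-44030268 and chr4:44031400-44031435, and the Cltb exon of 54 nt on the minus strand at chr13:54597026-54597079. All 3 lie wholly in the coding sequence, and each length is a multiple of 3. The shorter lines give the junction formed when the exons are skipped.
Clta 54-nt exon: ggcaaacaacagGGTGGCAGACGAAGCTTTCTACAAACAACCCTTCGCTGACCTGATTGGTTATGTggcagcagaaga
Cltb 54-nt exon: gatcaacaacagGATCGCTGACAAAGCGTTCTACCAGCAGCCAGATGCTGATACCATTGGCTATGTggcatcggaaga
Clta 36-nt exon: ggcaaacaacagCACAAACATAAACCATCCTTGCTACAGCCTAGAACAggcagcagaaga
Clta without both: ggcaaacaacagggcagcagaaga
Cltb without: gatcaacaacagggcatcggaaga
Aligned without gaps, the 54-nt exons of Clta and Cltb had the same base at 37 of 54 positions (68.5%). Cltb had 2 isoforms in the table, with and without its 54-nt exon, and neither held a counterpart of the 36-nt exon.

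Clta (chromosome 4, 44004452 to 44032846, plus strand) was abundant in every class. Its level was 1516 CPM in amacrine cells, 1382 in ganglion cells, 1266 in bipolar cells, 965 in rods, 929 in Müller glia and 748 in cones. No intervals of neighbours in that order overlapped, and the highest level was 2.03-fold above the lowest. Amacrine cells were highest with CPM and with TMM scaling, whereas with median-of-ratios scaling ganglion cells were.

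Cltb (chromosome 13, 54592401 to 54611344, minus strand) spread far more widely. It reached 1403 CPM in bipolar cells, 1097 in cones, 846 in amacrine cells, 768 in ganglion cells, 307 in Müller glia and 94.7 in rods. Bipolar cells were 14.8-fold above rods and cones 11.6-fold above rods. A level at least 2-fold higher in cones than in rods was met by 8.99% of all genes tested, and by 1 of the 9 genes, Cltb. Of the light chain counts, Cltb made up 8.93% in rods (8.70 to 9.17%), 24.8% in Müller glia, 35.7% in ganglion cells, 35.8% in amacrine cells. It made up 52.6% in bipolar cells and 59.5% in cones (58.6 to 60.3%). The photoreceptor classes thus held the lowest and the highest share, while the intervals of ganglion and amacrine cells overlapped. These are shares of counts, not scaled by transcript length, and are compared between classes only.

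**Figure D1:**
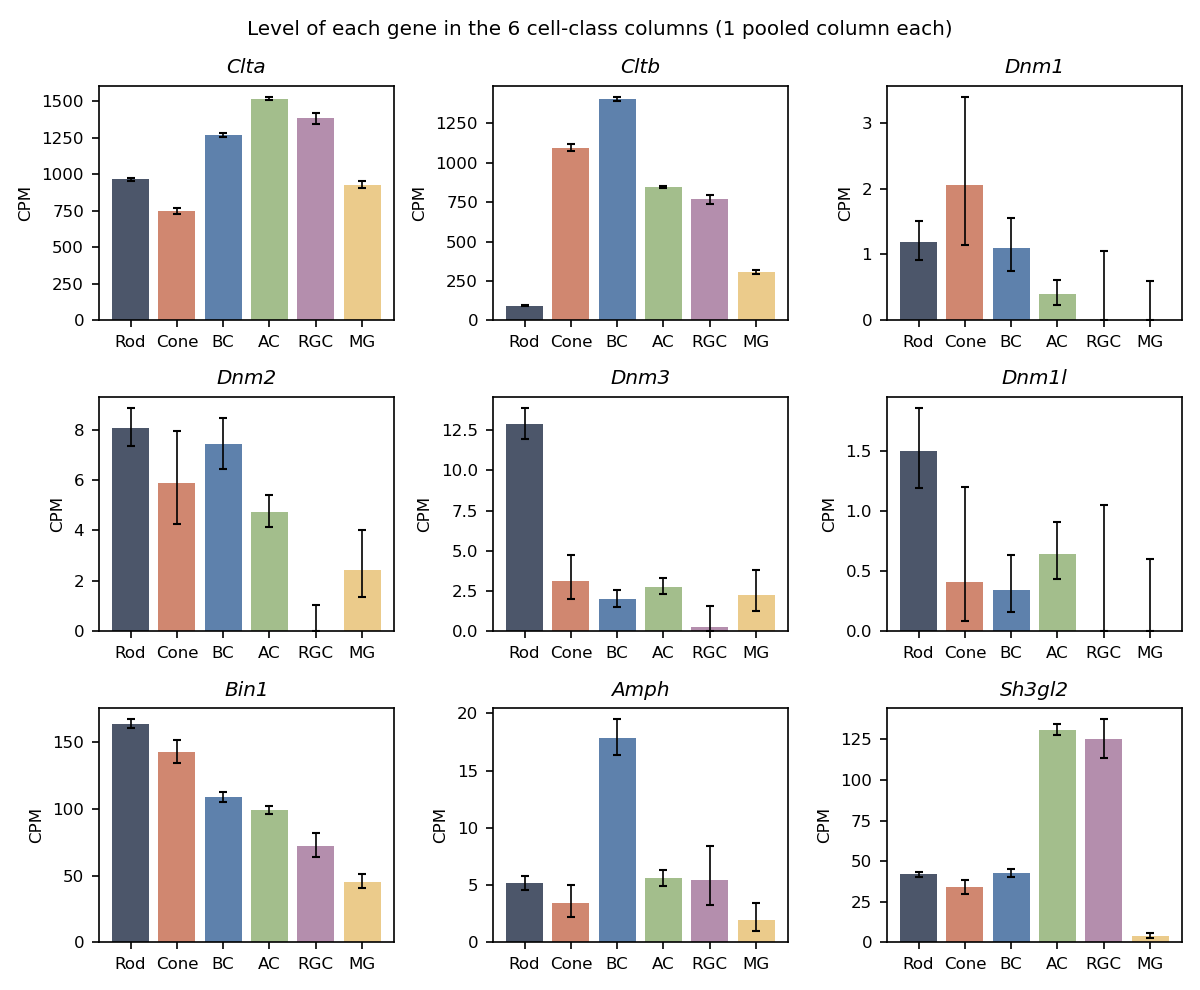
Level of each of the 9 genes in CPM (linear axis from 0, a scale of its own in each panel) in the 6 cell classes. Bars are single pooled columns and error bars are exact 95% Poisson intervals; Cltb is lowest in rods at 94.7 CPM, and Sh3gl2 is highest in amacrine cells at 131 CPM and ganglion cells at 125 CPM.

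In every neuronal class most light chain transcripts carried the 54-nt exon, and in Müller glia few did. In Clta the 54-nt exon was included in 95.8% of counts in ganglion cells (4648 of 4851), 92.7% in bipolar cells, 90.4% in amacrine cells, 89.8% in cones, 80.9% in rods (43289 of 53492) and 12.2% in Müller glia (696 of 5700, 11.4 to 13.1%). The Cltb exon followed the same order at its ends, with 98.9% in ganglion cells (2667 of 2696), 95.9% in bipolar cells, 94.1% in amacrine cells, 90.0% in cones, 84.3% in rods (4422 of 5248) and 14.6% in Müller glia (274 of 1880, 13 to 16.3%). The gap between the lowest neuronal class, rods in both genes, and Müller glia was 68.7 points for Clta and 69.7 points for Cltb.

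The 36-nt exon of Clta separated the neuronal classes from each other. It was included in 90.1% of counts in cones, 87.6% in rods, 81.9% in bipolar cells, 57.9% in amacrine cells (42373 of 73134) and 44.3% in ganglion cells (2147 of 4851, 42.9 to 45.7%). Müller glia were again lowest at 12.6% (720 of 5700). Rods and cones, which were low among neurons for the 54-nt exon, were highest for the 36-nt exon, and ganglion cells, highest for the former, were the lowest neurons for the latter, 31.6 points above Müller glia.

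By the presence of both exons, the Clta isoforms fell into 4 forms. Transcripts with both exons were the main form in cones (82.9%), bipolar cells (78.4%), rods (74.6%) and amacrine cells (51.7%). In ganglion cells the form with the 54-nt exon alone led with 51.6%, beside 44.2% with both. In Müller glia the form with neither made up 86.0% (4902 of 5700, 85.1 to 86.9%), against 3.04% in cones to 6.01% in rods. The form with the 36-nt exon alone was most frequent in rods, 13.1% (6987 of 53492), and was nearly missing in ganglion cells, 3 of 4851 counts (0.0618%, 0.0128 to 0.181%). Of the 5 Clta isoforms, 4 are Ensembl transcripts, 1 for each form, and the other has both exons and is counted with them.

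How often the 2 exons went together differed between classes. Among transcripts with the 54-nt exon, the 36-nt exon was present in 92.1% in rods, 57.2% in amacrine cells, 46.1% in ganglion cells and 88.8% in Müller glia. Among transcripts without the 54-nt exon, it was present in 68.5% in rods, 65.0% in amacrine cells, 1.48% in ganglion cells (3 of 203) and 2.04% in Müller glia. The 36-nt exon was thus more frequent beside the 54-nt exon in these classes except amacrine cells, where it was less frequent. The Müller glia value of 88.8% rests on 618 of 696 counts. The part of RNA of other classes in these counts was not tested.

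**Figure D2:**
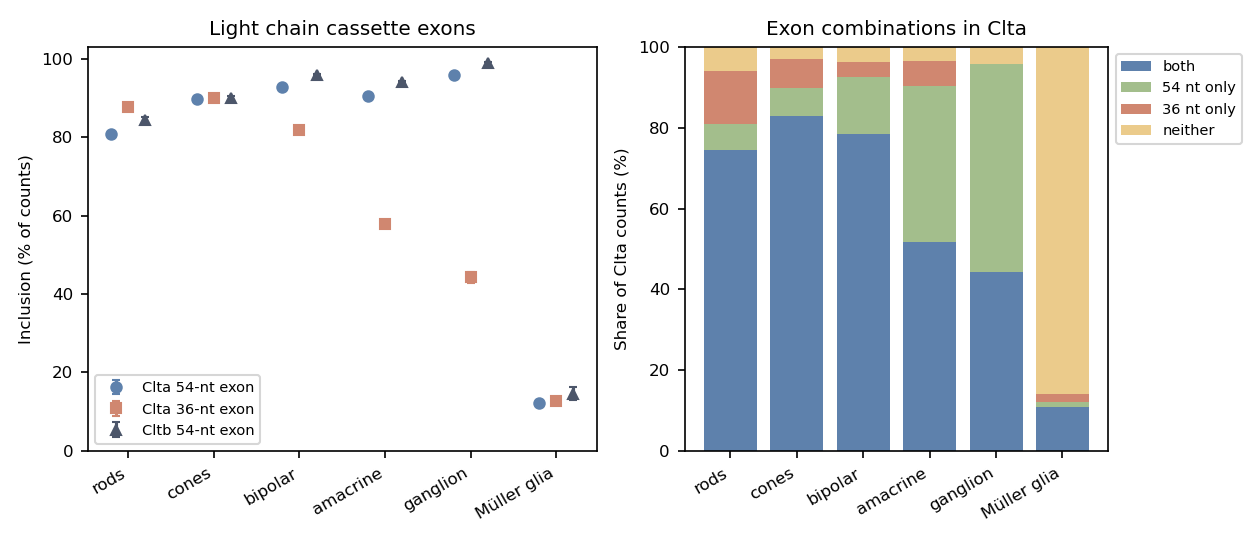
Left, inclusion of the 3 light chain cassette exons as a percentage of the gene's counts in each class, with exact 95% intervals that are mostly smaller than the points; right, shares of the 4 Clta forms. In Müller glia all 3 exons lie between 12.2% and 14.6%, and the form with neither exon fills 86.0% of the bar.

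Clta had nearly the same level in Müller glia as in rods, but other transcripts made it up. Transcripts with the 54-nt exon came to 113 CPM in Müller glia and 781 CPM in rods, and transcripts without it to 816 CPM in Müller glia and 184 CPM in rods. The Müller glia level with the exon was 14.5% of the rod level. Transcripts with the exon came to 1371 CPM in amacrine cells and 1173 CPM in bipolar cells. In the Müller glia column rod markers stood at 5.84%, amacrine markers at 4.35% and bipolar markers at 3.22% of the level in their own class. The part of cells or RNA of other classes in the 12.2% was not tested.

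Dynamin levels in CPM were far below those of the light chains, and reached 12.9 CPM at most. CPM is not scaled by transcript length, and the median level of all genes fell with length. It was 20.6 CPM for longest coding transcripts of 1000 to 2000 nt, the range of Clta. Over 6000 nt, the range of Dnm3, it was 1.09 CPM. The part of length in the gap between light chains and dynamins was not tested. Dnm2 (chromosome 9, 21424908 to 21507759, plus strand), the dynamin known from most tissues, had 8.06 CPM in rods, 7.41 in bipolar cells, 5.88 in cones, 4.75 in amacrine cells and 2.45 in Müller glia (15 counts), with 0 counts in ganglion cells. The intervals of rods, bipolar cells and cones ran into each other, as did those of cones and amacrine cells. With isoforms of at least 50 counts bipolar cells were highest, and with Ensembl transcripts only Müller glia were. Dnm3 (chromosome 1, 161982453 to 162478034, minus strand), a dynamin known from brain and testis, had 12.9 CPM in rods (11.9 to 13.9), 3.15 in cones, 2.78 in amacrine cells, 2.28 in Müller glia, 2.00 in bipolar cells and 1 count in ganglion cells. Rods stood apart from all other classes, and the intervals of the other classes overlapped with those of their neighbours in the order. Dnm1 (chromosome 2, 32308471 to 32353338, minus strand), the dynamin known for synaptic vesicle recycling, had 66 counts in rods, 32 in bipolar cells, 19 in amacrine cells and 15 in cones, or 1.19, 1.10, 0.394 and 2.05 CPM. In Müller glia and ganglion cells it had 0 counts, for which the limit of 3 counts is 0.489 and 0.855 CPM. The exact intervals reach 0.601 and 1.051 CPM.

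The make-up of the dynamins differed between rods and 3 other neuronal classes. Dnm3 held 58.2% of the dynamin counts in rods (714 of 1227, 55.4 to 61.0%), against 35.1% in amacrine cells, 28.4% in cones and 19% in bipolar cells. In those 3 classes the largest share of counts was that of Dnm2, 59.9% in amacrine cells, 53.1% in cones and 70.5% in bipolar cells. In Müller glia, with 29 dynamin counts, Dnm3 held 48.3% (29.4 to 67.5%) and Dnm2 51.7%, and that interval takes in the share of rods. The dynamin shares are not scaled by transcript length. They are compared between classes only and do not rank the dynamins within a class.

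Isoforms of the dynamins were mostly incomplete. None of the 10 Dnm1 isoforms ran from the annotated start codon to the stop codon, none is an Ensembl transcript, and the 4 most abundant in rods had 3 to 10 exons. An isoform was taken to run from start to stop codon where its exons held both, and the reading frame between them was not checked. Of the counts of Dnm2, 24.3% were in such isoforms, and of those of Dnm3, 28.7%. For Clta, Cltb, Bin1 and Sh3gl2 this share was 100%. The longest coding transcript is 4605 nt for Dnm1, 3510 nt for Dnm2 and 7523 nt for Dnm3, but 1710 nt for Clta and 2186 nt for Cltb. Over all 13027 genes with a coding transcript, the median share was 100% for longest transcripts under 3000 nt, 94.99% from 3000 to 4000 nt, 47.1% from 4000 to 6000 nt and 0% over 6000 nt, and 2952 genes had no start-to-stop isoform. The share of Dnm2 lay below the median of its length range and that of Dnm3 above it. Isoform shares of the dynamins below are shares of these partial models.

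Dnm3 isoforms differed by where the transcript ended. Models ending at the first last exon in the order of transcription, with 18 or 19 exons, held 59.4% of counts in rods (424 of 714), 69.6% in cones (16 of 23), 37.9% in bipolar cells (22 of 58) and 28.4% in amacrine cells (38 of 134). A 20-exon model with a later end held 31.1% in rods, 51.7% in bipolar cells (30 of 58) and 3.73% in amacrine cells. In amacrine cells a 4-exon model at the 3′ end of the gene held 67.2% (90 of 134, 58.5 to 75%), against 2.66% in rods and 0 counts in cones and bipolar cells. The most abundant isoform of amacrine cells therefore differed from those of rods, cones and bipolar cells by 64.5 to 67.2 points. A 52-nt exon, exon 13 of 19, was in 94.7% of informative counts in rods (612 of 646), 40 of 52 in bipolar cells and 43 of 43 in amacrine cells. Its length is not a multiple of 3.

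Dnm2 has a pair of neighbouring 139-nt exons in the middle of the gene, which are annotated in separate transcripts and known as alternatives to each other. They are printed because rods joined them in a way that amacrine cells hardly did. Capitals mark the exons, at chr9:21478899-21479037 and chr9:21480407-21480545 on the plus strand.
Dnm2 first 139-nt exon: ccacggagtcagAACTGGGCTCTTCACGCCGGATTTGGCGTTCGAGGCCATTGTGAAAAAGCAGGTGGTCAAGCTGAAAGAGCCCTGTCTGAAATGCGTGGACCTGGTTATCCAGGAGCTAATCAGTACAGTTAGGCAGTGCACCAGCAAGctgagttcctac
Dnm2 second 139-nt exon: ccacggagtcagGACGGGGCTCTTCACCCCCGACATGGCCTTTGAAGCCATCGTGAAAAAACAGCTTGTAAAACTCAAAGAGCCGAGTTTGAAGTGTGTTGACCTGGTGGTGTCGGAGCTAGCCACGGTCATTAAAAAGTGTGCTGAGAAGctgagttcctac
They had the same base at 95 of 139 positions (68.3%). The first exon was included in 121 of 278 informative counts in rods (43.5%, 37.6 to 49.6%), 5 of 14 in cones, 21 of 125 in bipolar cells (16.8%) and 3 of 66 in amacrine cells (4.55%, 0.947 to 12.7%). The intervals of rods, bipolar cells and amacrine cells left a gap between rods and both other classes. Sorted by isoform, 82 of 278 counts in rods (29.5%), 20 of 125 in bipolar cells (16%) and 3 of 66 in amacrine cells joined both exons, in 2 isoforms that are not Ensembl transcripts. The first exon alone was in 39 counts in rods, 1 in bipolar cells, 1 in cones and 0 in amacrine cells, and the second alone in 157, 104, 9 and 63. Since 139 is not a multiple of 3, a transcript with both does not keep the reading frame of a transcript with 1 of them. A 74-nt exon near the 5′ end (chr9:21457503-21457576) was included in 428 of 431 counts in rods (99.3%) and 168 of 214 in amacrine cells (78.5%). The most abundant Dnm2 isoform, a 7-exon model that ends early, was the same in rods, cones, bipolar cells and amacrine cells, with 28.4 to 51.2% of counts.

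Dnm1 could be compared between bipolar cells and rods only. A 135-nt exon was in 19 of 37 informative counts in rods (51.4%, 34.4 to 68.1%) and 3 of 21 in bipolar cells (14.3%, 3.05 to 36.3%), and a 37-nt exon in 11 of 37 and 0 of 21. The intervals of each of these exons overlapped between the classes, and neither is an exon of the annotated coding sequence.

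Dnm1l (chromosome 16, 16312230 to 16358959, minus strand), whose product constricts mitochondria, had 83 counts in rods (1.5 CPM), 31 in amacrine cells (0.643), 3 in cones (0.411), 10 in bipolar cells (0.345) and 0 in Müller glia and ganglion cells. Rods were above amacrine cells beyond their intervals, and the intervals of the other neighbours overlapped. A 78-nt coding exon set amacrine cells apart from rods, and it is printed for that reason with the neighbouring 33-nt exon. They lie at chr16:16318764-16318841 and chr16:16318445-16318477 on the minus strand, with the exon in capitals.
Dnm1l 78-nt exon: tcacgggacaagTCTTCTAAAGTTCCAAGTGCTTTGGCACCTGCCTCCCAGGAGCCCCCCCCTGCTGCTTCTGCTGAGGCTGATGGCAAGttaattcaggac
Dnm1l 33-nt exon: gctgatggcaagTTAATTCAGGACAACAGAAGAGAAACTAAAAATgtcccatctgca
Both lengths are multiples of 3. The 78-nt exon was in 20 of 21 informative counts in amacrine cells (95.2%, 76.2 to 99.9%) and 5 of 66 in rods (7.58%, 2.51 to 16.8%), a difference of 87.7 points, and in 0 of 6 in bipolar cells. The 33-nt exon was in 21 of 21 counts in amacrine cells (83.9 to 100%), 50 of 66 in rods (75.8%, 63.6 to 85.5%) and 6 of 6 in bipolar cells. Its intervals in amacrine cells and rods overlapped. Amacrine transcripts thus joined both exons in 20 of 21 counts, whereas rod transcripts had the 33-nt exon alone in 45 of 66, neither in 16 and both in 5. A 110-nt exon further 3′ was in 66 of 69 counts in rods and 21 of 31 in amacrine cells, where 10 of 31 counts were in a 4-exon isoform. The amacrine values rest on 31 counts of the gene.

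Bin1 (chromosome 18, 32377230 to 32435737, plus strand), also called amphiphysin 2, differed between more pairs of classes than the other genes. Its level was 164 CPM in rods, 143 in cones, 109 in bipolar cells, 99.4 in amacrine cells, 72.7 in ganglion cells and 45.7 in Müller glia, with no overlap of neighbouring intervals. Rods were highest with CPM, whereas cones were highest with TMM and with median-of-ratios scaling and bipolar cells with Ensembl transcripts only.

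All 5 Bin1 isoforms shared their first 6 exons, exons 8 to 11 and the last 3 exons of the 19-exon transcript, and differed in exon 7 and exons 12 to 16. These exons include the stretch known to bind clathrin and the AP2 adaptor, which brain isoforms of Bin1 contain. The 19-exon form (ENSMUST00000025239.8) made up 96.9% of counts in amacrine cells (4648 of 4795), 95.7% in ganglion cells (244 of 255), 94.8% in bipolar cells (2999 of 3165), 35.3% in cones (369 of 1046), 7.86% in Müller glia (22 of 280) and 3.81% in rods (346 of 9093). A form that lacks only the 129-nt exon 12 and is not an Ensembl transcript made up 71.1% in rods (6465 of 9093, 70.2 to 72.0%), 54.3% in cones, 16.4% in Müller glia and 2.31 to 3.92% in the other neurons. In Müller glia the leading form was a 13-exon transcript (ENSMUST00000234496.1) without exon 7 and without exons 12 to 16, 534 nt in all. It held 72.5% there (203 of 280, 66.9 to 77.6%), 5.19% in rods (472 of 9093), 0.506% or less in the other classes with counts of it and 0 of 255 in ganglion cells. The columns of inner retinal neurons, of photoreceptors and of Müller glia thus each had a different main form of Bin1.

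Exon 12 separated photoreceptors from the other neurons, and the other exons separated Müller glia from all neurons. Inclusion of exon 12 was 96.9% in amacrine cells, 95.7% in ganglion cells, 94.8% in bipolar cells, 35.3% in cones (32.4 to 38.3%), 7.86% in Müller glia (4.99 to 11.7%) and 3.81% in rods (3.42 to 4.22%). Exon 7 (93 nt), exon 14 (24 nt) and exon 16 (72 nt) were each in 94.8% of counts in rods, 99.5 to 100% in the other neurons and 27.5% in Müller glia (77 of 280), the same counts in all 3 because the 13-exon form alone lacks them. Exons 13 and 15, both 108 nt, were in 85.7% and 84.0% of counts in rods, 94.6% and 94.8% in cones and 26.8% and 25% in Müller glia. Rods and cones also used the forms that skip exons 12 and 15 together (10.8% in rods, 4.97% in cones) or exons 12 and 13 together (9.09% and 5.26%), which in bipolar, amacrine and ganglion cells came to 1.23% or less each. All 6 cassette exons have lengths that are multiples of 3 and lie in the annotated coding sequence.

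**Figure D3:**
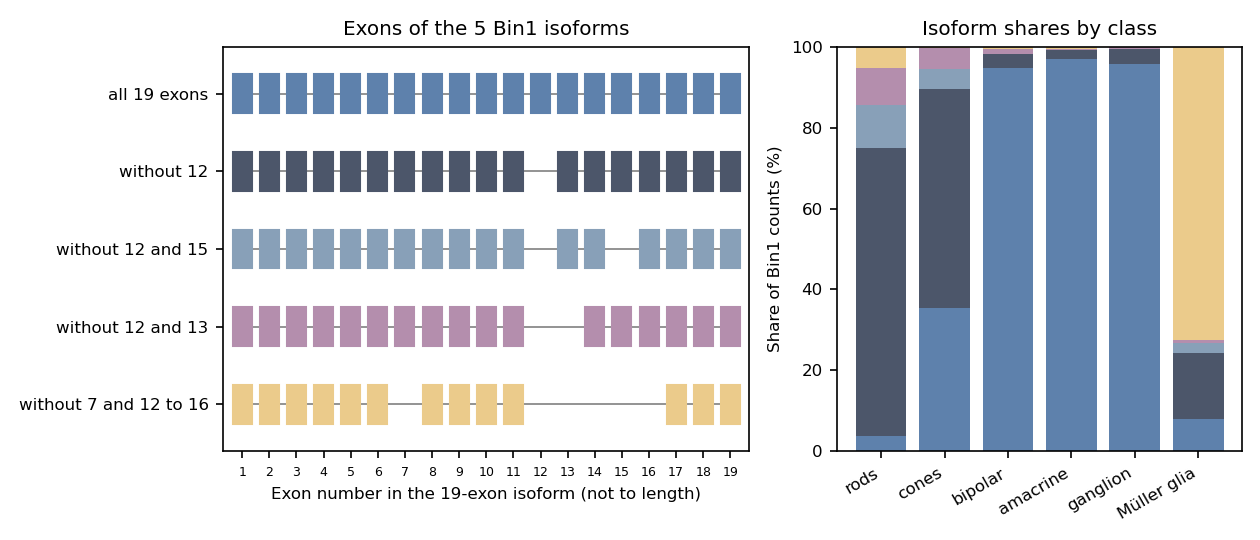
Left, exons present (boxes) in the 5 Bin1 isoforms, numbered as in the 19-exon transcript and not drawn to length; right, share of each isoform among the Bin1 counts of each class, in the same colours. Amacrine, bipolar and ganglion cells are nearly filled by the 19-exon form, rods by the form without exon 12 (71.1%) and Müller glia by the 13-exon form (72.5%).

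The rod form was also the leading form of cones, but cones kept 35.3% of the 19-exon form against 3.81% in rods. In the cone column rod markers came to 4.11%, bipolar markers to 3.03% and amacrine markers to 0.519% of the level in their own class. The part of RNA of other classes in the cone values was not tested. Nor was the part of other cells in the Müller glia counts, both the 27.5% outside the 13-exon form and the 72.5% in it. The 13-exon form had 203 counts in the Müller glia column and 472 in rods. Summed microglia markers were also highest in these columns, at 1664 and 725 CPM, and microglia have no column of their own.

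Amph (chromosome 13, 18948205 to 19150921, plus strand), amphiphysin 1, was highest in bipolar cells at 17.9 CPM (16.4 to 19.5). Amacrine cells had 5.60 CPM, ganglion cells 5.41, rods 5.20, cones 3.42 and Müller glia 1.96, and the intervals of neighbours among these 5 overlapped. Bipolar cells were 3.20-fold above amacrine cells, 3.44-fold above rods and 5.23-fold above cones. With Ensembl transcripts only, which leaves out most of the bipolar counts, ganglion cells were highest.

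The end of the Amph transcript differed between classes. The 21-exon isoforms, which run through the gene to the exons for its SH3 domain, the part that binds dynamin, held 19 of 19 counts in ganglion cells and 184 of 270 in amacrine cells (68.1%, 62.2 to 73.7%). They held 3 of 519 in bipolar cells (0.578%, 0.119 to 1.68%), 1 of 25 in cones, 17 of 288 in rods (5.90%) and 6 of 12 in Müller glia. A 15-exon model with an earlier last exon held 411 of 519 counts in bipolar cells (79.2%), 23 of 25 in cones and 164 of 288 in rods (56.9%), but 2 of 270 in amacrine cells and 0 of 19 in ganglion cells. By these models, most counts in amacrine and ganglion cells ended at the last exon of the gene, but ganglion cells had fewer than 20 counts. In rods, cones and bipolar cells most ended at an earlier exon. Whether the shorter models are whole transcripts was not tested. A 12-exon model held 11.1% in rods, 19.1% in bipolar cells and 31.1% in amacrine cells, and a 4-exon model held 75 of 288 counts in rods (26.0%), 6 of 519 in bipolar cells and 0 in the other classes. A 95-nt exon near the 5′ end was skipped by that 4-exon model only, and its inclusion was 74.0% in rods against 98.8 to 100% elsewhere. None of the 15-exon, 12-exon and 4-exon models is an Ensembl transcript, and isoforms from start to stop codon held 20.3% of the Amph counts.

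**Figure D4:**
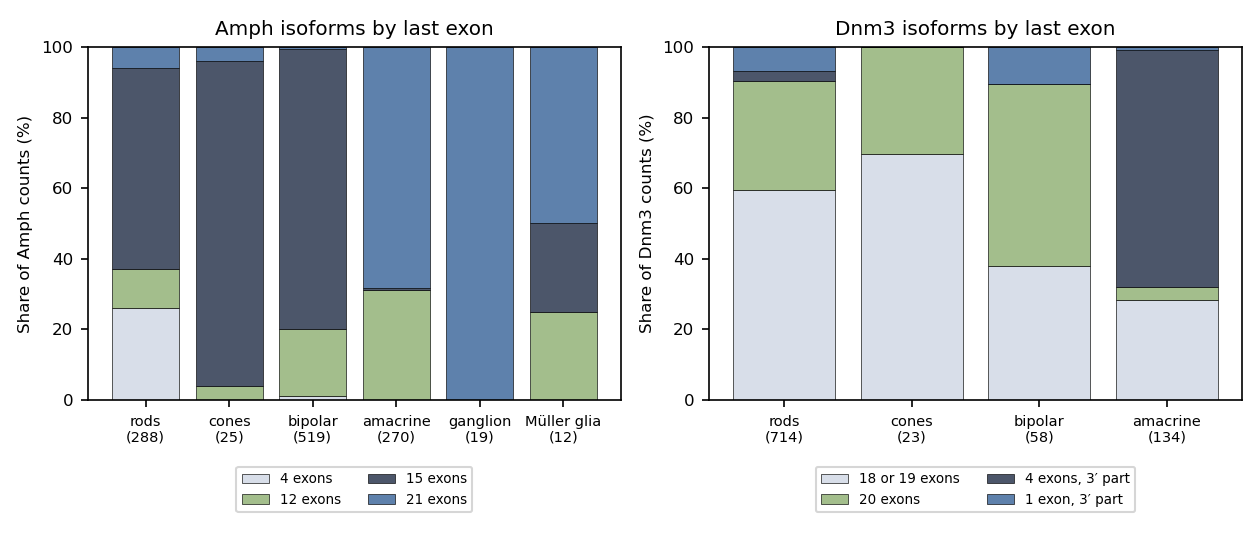
Shares of Amph counts (left, 6 classes) and Dnm3 counts (right, the 4 classes with at least 20 counts) by the last exon of the isoform, from 0 to 100%, with the gene's counts in brackets. Amph in amacrine cells ends mostly at the last exon of the 21-exon forms (68.1%) and in bipolar cells at that of the 15-exon model (79.2%); Dnm3 in amacrine cells is mostly the 4-exon 3′ model (67.2%).

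The 21-exon isoforms of Amph came in a pair that differ by 12 nt at the end of exon 16 (chr13:19121275-19121331 in the longer form). They are shown because their ratio could be counted in amacrine and ganglion cells, and the capitals mark the 12 nt present in the longer form only.
Amph exon 16: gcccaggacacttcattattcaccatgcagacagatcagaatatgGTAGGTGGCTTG
The longer form (ENSMUST00000200466.4) had 153 counts and the shorter (ENSMUST00000003345.9) 31 in amacrine cells, and 9 and 10 in ganglion cells.

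Sh3gl2 (chromosome 4, 85205126 to 85639195, plus strand), endophilin A1 of the synaptic vesicle cycle, had 131 CPM in amacrine cells and 125 in ganglion cells, whose intervals overlapped. Bipolar cells had 42.7 CPM and rods 41.8, which also overlapped, cones 33.9 and Müller glia 4.08 (25 counts). Amacrine cells were highest with CPM and TMM scaling and ganglion cells with median-of-ratios scaling, and Müller glia were 32.1-fold below amacrine cells. Among the endophilin A genes, Sh3gl2 held 82.5% of counts in ganglion cells, 76.9% in amacrine cells, 47.1% in cones, 45.2% in rods, 42.4% in bipolar cells and 13.4% in Müller glia (8.84 to 19.1%). Its broadly expressed relative Sh3gl1 held 86.6% in Müller glia. The endophilin shares are not scaled by transcript length either. Sh3gl2 had a single isoform, so no isoform share could be compared.

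As a group, the 9 genes were mostly lower in Müller glia than in rods. At least 2-fold lower in Müller glia were 7 of the 9, where 34.1% of 10140 genes tested were, and 1 of 9, Cltb, was at least 2-fold higher, where 21.7% were. The median log2 ratio of Müller glia to rods was -1.61 over the 9 genes, with the 0 counts of Dnm1 and Dnm1l set to 3 counts, and -0.41 over all genes. Against bipolar cells, 6 of the 8 genes tested were at least 2-fold lower in Müller glia (29.7% of all genes tested) and none was higher (20.2%). Dnm1 was called lower in both comparisons with its 0 counts set to 3 counts. Its exact upper limit in Müller glia is 0.601 CPM, beside 1.19 CPM in rods and 1.10 CPM in bipolar cells. Between other pairs of classes the counts were smaller. Of 9 genes tested, 2 were higher in amacrine cells than in rods (32.7% of all genes) and 3 were higher in rods than in amacrine cells (33.7%). With 9 genes chosen by name these shares describe the group and carry no test.

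Most of these genes had another main isoform in some classes than in others. A gene was called switched where the most abundant isoform differed between classes that had at least 20 counts each and its share, or that of its counterpart, differed by at least 50 points. Of the 8 genes that could be compared, 6 were switched between at least 1 pair of classes, against 25% of 7317 genes with 2 or more isoforms. Those genes were not matched to the 8 in number of isoforms or of pairs tested. Clta and Cltb were switched in 5 of 15 pairs each, always with Müller glia on 1 side, and Bin1 in 11 of 15. Amph and Dnm3 were switched in 3 of 6 pairs each, always with amacrine cells on 1 side, Dnm1l in its only pair, and Dnm2 (6 pairs) and Dnm1 (1 pair) in none. In each pair of Müller glia with another class 3 of 3 genes tested were switched, where 4.54% of all genes were with rods, 4.29% with cones, 4.53% with bipolar cells, 9.26% with amacrine cells and 13.1% with ganglion cells. For amacrine cells, 4 of 7 were switched against rods (10.8% of all genes), 3 of 6 against cones (8.05%) and 2 of 6 against bipolar cells (9.23%). Bin1 alone was switched between bipolar cells and cones (2.26%), bipolar cells and rods (4.32%), cones and ganglion cells (11.7%) and rods and ganglion cells (13.3%). Without the Müller glia column 4 genes were switched, Amph, Bin1, Dnm1l and Dnm3. With Ensembl transcripts only, 3 were, Bin1, Clta and Cltb.

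Among the cassette exons of these genes, 21 of 32 had at least 20 informative counts in 2 or more classes, and the inclusion of 10 differed by at least 50 points, against 11% of the 10708 exons tested in the whole table. These were the 3 light chain exons, the 6 exons of Bin1 and the 78-nt exon of Dnm1l. All 10 have lengths that are multiples of 3, as do 19 of the 32 exons of these genes and 39.1% of the 14769 cassette exons of the table. Between rods and Müller glia, 8 of 9 exons tested passed 50 points, against 2.22% of 4809 exons, but 5 of these 8 are exons of Bin1 that are skipped in the same transcripts. The median absolute difference between rods and Müller glia was 67.3 points over the 9 exons and 5.02 points over all 4809. Without the Müller glia column, 2 exons passed, so that most of these differences rest on a column of 6133094 counts that also held microglia and pigment epithelium markers.

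**Figure D5:**
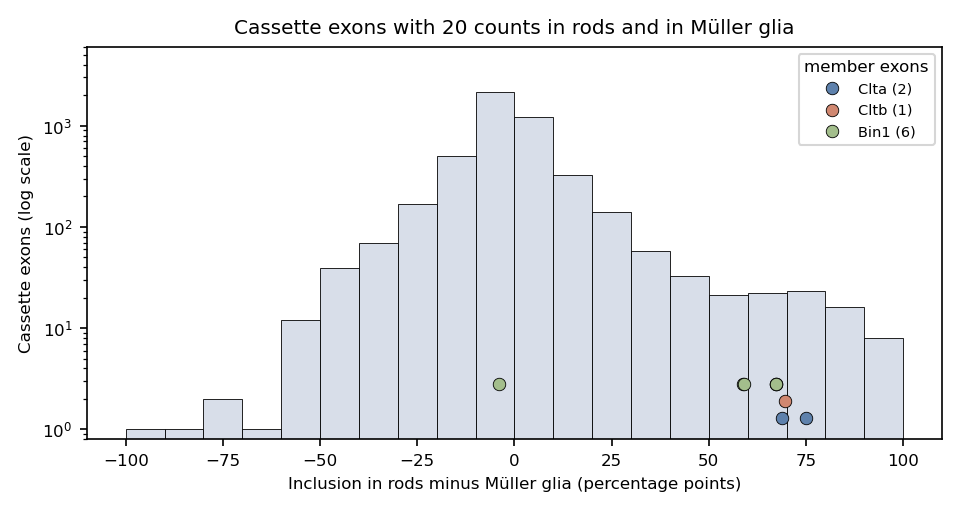
Inclusion in rods minus inclusion in Müller glia, in percentage points, for the 4809 cassette exons with at least 20 counts in both classes (bars, number of exons on a log axis). Coloured points, at heights without meaning, are the 9 exons of Clta, Cltb and Bin1, of which 8 lie between 58.9 and 75 points and exon 12 of Bin1 at -4.05 points; points of Bin1 at the same value lie on top of each other.

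A list of 43 other genes of the pathway gave the setting. It comprised 24 genes for the heavy chain and adaptors, 15 for BAR proteins, fission and uncoating, and 4 partners of Dnm1l in mitochondrial fission, and all 43 were in the table. Their highest class was amacrine cells for 10 genes (20.9% of all genes in the table), Müller glia and rods for 9 each (19% and 23.9%), bipolar cells for 7 (13.9%), ganglion cells for 5 (13.7%) and cones for 3 (8.48%). In Müller glia against rods, 13 of 38 listed genes tested were at least 2-fold lower and 4 higher, beside 34.1% and 21.7% of all genes, with a median log2 ratio of -0.50 against -0.41 over all genes. By sublist the lower and higher counts were 8 and 2 of 21 for the heavy chain and adaptors, 4 and 2 of 13 for BAR proteins, fission and uncoating, and 1 and 0 of 4 for the fission partners. The heavy chain gene Cltc, the partner of the light chains, had 0.974 CPM in amacrine cells, 1.57 in rods and 3.0 in bipolar cells.

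With at least 20 counts in every class, the widest ranges among the listed genes were those of Sh3glb1, Pacsin1 and Sh3glb2. Sh3glb1, endophilin B1 of mitochondria and autophagy, ran from 9.12 CPM in ganglion cells to 132 in rods, a ratio of 14.5. Pacsin1, a neuronal BAR protein that binds dynamin, ran from 26.3 CPM in Müller glia to 307 in cones, a ratio of 11.7. Sh3glb2, endophilin B2, ran the other way from Sh3glb1, from 10.3 CPM in Müller glia and 12.7 in rods to 118 in ganglion cells, a ratio of 11.5. Under the rule of 20 counts used above, 13 of 32 listed genes were switched, against 25% of all genes. With at least 100 counts in both classes, 2 of 16 listed genes were, against 10.3% of 4739 genes in the whole table and 5 of the 6 genes among the 9 that had as many. Sh3glb1 differed between Müller glia and each of rods, cones, bipolar cells and amacrine cells by 61.8 to 63.7 points, and Eps15, a scaffold of clathrin-coated pits, between amacrine cells and rods by 53.4 points.

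The gene whose levels over the 6 classes were most like those of each member, by Pearson's r of log2(CPM + 1) among 5226 genes with at least 1000 counts, was Slc35g2 for Cltb (r = 0.985), Tmem150c for Bin1 (0.985), Umad1 for Sh3gl2 (0.995), Gm45713 for Clta (0.992) and Rpa3 for Dnm3 (0.997). For Dnm2 it was Rlf (0.998), for Dnm1l Adal (0.987), for Amph Atp5k (0.986) and for Dnm1 Rab3ip (0.982). The values rest on 6 points that share their columns and are a description only.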

How the data were processed

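The deposited table gives each isoform's raw counts for 6 cell classes, pooled over libraries, and the deposited annotation holds FLAIR transcript models, per the file contents. The submitters' processing notes name genome build mm10. The aligner, the use of molecular identifiers, filters, cell calling and cell typing are not given in the sources used here, and cell-level data were not analysed here. All 6 columns were used, and 0 columns were left out. The counts of a gene's isoforms were summed and scaled to CPM. Exact Poisson and Clopper-Pearson 95% intervals cover counting error only, as reads are not known to be separate molecules. The limit for a count of 0 was 3 counts.

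Exons came from the deposited models, which exist only for isoforms with counts in rods, and from GENCODE M21 (GRCm38) for Ensembl transcripts without a model. Of the isoforms of the 9 genes, 1 (Dnm1, 16 counts in amacrine cells) had no structure. Inclusion was the counts of isoforms with the exact exon over those plus isoforms with an intron across it. A fold of 2 needed 20 counts in 1 class of the pair, and switches and exons needed 20 in both and 50 points. Strand use in counting is not given, and Dnm2, Dnm3, Dnm1l and Bin1 overlap a gene on the other strand (Tmed1, Gm10176, Gm49521 and A830052D11Rik), whose reads may not have been told apart.

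Described were all 9 genes, all light chain exons, other exons with a difference of at least 20 points, the listed genes switched with at least 100 counts, the 3 widest listed genes and the most similar gene. Genes, lists and rules were chosen with earlier results of these data known. The joint count of the Dnm2 and Dnm1l exons was added after their values were seen. The rules were tested on simulated data. Python 3.11.15, pandas 2.3.3 and scipy 1.17.1 were used, and TMM (trimmed mean of M-values) and median-of-ratios scaling were computed as alternatives. Sequences were read from GENCODE M21 transcripts.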

Additional observations from a re-analysis of the deposited data

How the results depend on the processing

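No paired analysis was possible because a class column pools the libraries and has no replicate number, and leaving out each library in turn was not possible for the same reason. Of 75 recomputed values, 55 stayed within 1.5 times a count or within the counting interval of a value, and 20 moved. Of the 9 genes, 4 had the same highest class with Ensembl transcripts only, 7 with isoforms of at least 50 counts, 8 with TMM scaling, 6 with median-of-ratios scaling and 9 with isoforms of at least 2 exons. Those scalings moved the log2 size of a column by -0.24 (Müller glia, median of ratios) to 0.19 (amacrine cells, median of ratios), and left 7 (TMM) and 6 (median of ratios) genes at least 2-fold lower in Müller glia than in rods. With Ensembl transcripts only, the Cltb share of light chain counts in rods was 9.24% in place of 8.93%, and 3 genes in place of 6 were switched, with fewer isoforms compared. At 75 points 6 exons in place of 10 passed, and without the Müller glia column, an alternative chosen after seeing the data, 2 passed. The gaps of the light chain exons between Müller glia and the lowest neuronal class could not change with deposited models only or isoforms of at least 50 counts. Those settings left out no light chain isoform, and their values are among the 55 that stayed. With Ensembl transcripts only, which left out a Clta isoform with both exons, the Clta gaps were 68.6 points (54-nt exon) and 31.8 points (36-nt exon). Depth limits Dnm1, Dnm1l, Dnm2, Dnm3 and Amph in ganglion cells and Müller glia, where none had 20 counts.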

Other observations

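Some listed genes, chosen here after their values were seen, divided the classes in other ways. Ap2m1 and Ap2s1, the medium and small subunits of the AP2 adaptor that links cargo to clathrin, had 475 and 1208 CPM in amacrine cells and 571 and 1098 CPM in ganglion cells, against 220 and 383 CPM in rods and 106 and 344 CPM in Müller glia. Fis1 and Mff, mitochondrial receptors of the Dnm1l product, were highest in amacrine cells, at 1668 and 642 CPM, beside 718 and 231 CPM in rods. Hspa8, the chaperone that strips clathrin coats, was lowest in amacrine cells at 383 CPM and highest in bipolar cells at 3034 CPM.

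Counts fell with transcript length over the whole table. The median level of genes was 27.4 CPM where the longest coding transcript was under 1000 nt, 2.57 CPM from 3000 to 4000 nt, 1.42 CPM from 4000 to 6000 nt and 1.09 CPM over 6000 nt. The share of genes without any start-to-stop isoform was 10.3%, 15.5%, 31.9% and 60.8% in the same ranges. Over all classes, Dnm2 (6.34 CPM), Amph (7.57 CPM), Sh3gl2 (70.7 CPM) and Dnm3 (6.31 CPM) lay above the median level of their own length range, and Dnm1 (0.882 CPM) and Dnm1l (0.849 CPM) below it. Of these genes, Dnm1, Dnm2, Dnm1l and Amph were also below the median start-to-stop share of their range.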
